A study of Caenorhabditis elegans with 2 samples.

Results

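The genes described here act in counting X chromosomes, in setting X expression or, for her-1, in male fate in *Caenorhabditis elegans*: xol-1, sex-1, sdc-2, sdc-1, sdc-3, dpy-27, dpy-21 and her-1. They are 8 of 19973 annotated protein-coding genes, and 4 of them lie on X. They were chosen by name, with results of these data already known and a strong entry upstream of xol-1 already seen. For each gene, every entry of the deposited replicate ranking was taken whose summit lay between 6000 bp upstream of the gene's 5' end and its 3' end. An entry is a candidate binding region that the peak caller ranked in both replicates, and most entries are weak. The spans held 150 of the 125458 candidates in the ranking, and no candidate was counted under 2 of the genes.

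The study mapped where LAG-1 sits on chromatin in young adult worms. Strain RW12314 carries a CRISPR insertion of TY1, EGFP and 3xFLAG in lag-1 itself on chromosome IV, the allele st12314, so the fusion is made from the gene's own locus. Worms were synchronised by starving L1 larvae hatched after bleaching and were collected whole at 62 hours, their sex was not collected, and sonicated chromatin was precipitated with an antibody to GFP. There is 1 group of 2 biological replicates, so nothing here compares conditions. In whole worms the number of cells with a bound site and the occupancy per cell cannot be told apart, and the tissue that gave a signal is unknown. Worms that lack the tag were not analysed here, and the depth of each replicate is unknown.

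LAG-1 is the worm's CSL protein, the DNA-binding partner of the cleaved Notch receptors LIN-12 and GLP-1. In a separate pathway, the ratio of X chromosomes to autosomes sets the activity of xol-1 in the early embryo: xol-1 is on in XO animals, which become males, and off in XX animals, which become hermaphrodites. With xol-1 off, the SDC proteins recruit a condensin-like dosage compensation complex to both X chromosomes of the hermaphrodite and lower their expression, and they also repress her-1, which directs male fate. The complex enters X at recruitment sites that often hold clustered copies of a motif, whose core is written here as GCGCAGGG.

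3 of the candidates carry most of what follows, and the 100 bases on either side of each summit show what the DNA there holds. The sequences are those of the NCBI assembly WBcel235 (ce11), read 5' to 3' on the plus strand. The first is the strongest of the 150 candidates, upstream of xol-1 at chrX:8036314-8036514, with 2 copies of the core in capitals, the left one on the minus strand and therefore shown as its reverse complement.
xol-1 upstream candidate: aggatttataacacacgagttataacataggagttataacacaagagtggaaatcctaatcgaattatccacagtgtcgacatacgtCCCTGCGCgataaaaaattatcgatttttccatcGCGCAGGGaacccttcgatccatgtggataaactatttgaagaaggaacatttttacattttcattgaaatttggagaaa
The second is the strongest candidate of sdc-2, just upstream of the gene at chrX:11522226-11522426, with a LAG-1 site in capitals, which reads GTGGGAA on the minus strand.
sdc-2 upstream candidate: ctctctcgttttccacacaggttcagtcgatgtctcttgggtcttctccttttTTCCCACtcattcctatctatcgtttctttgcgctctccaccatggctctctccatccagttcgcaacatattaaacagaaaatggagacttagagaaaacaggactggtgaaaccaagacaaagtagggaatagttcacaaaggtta
The third lies upstream of dpy-21 at chrV:17951218-17951418 and holds neither word, so it is in lower case throughout.
dpy-21 upstream candidate: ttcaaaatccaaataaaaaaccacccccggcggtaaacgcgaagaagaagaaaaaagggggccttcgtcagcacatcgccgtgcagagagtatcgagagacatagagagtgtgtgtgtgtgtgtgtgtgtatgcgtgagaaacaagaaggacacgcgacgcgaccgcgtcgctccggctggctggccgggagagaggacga

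Reproducibility was read from the deposited irreproducible discovery rate (IDR), which is low for a candidate that ranks high in both replicates. The limit of the deposited thresholded lists, an IDR of 0.01, was passed by 1 of the 8 genes, xol-1, where 2.94% of all protein-coding genes passed with a span drawn the same way. At an IDR of 0.05 there were 2 genes, xol-1 and dpy-21, where 13.2% of all genes passed. Of the 150 candidates, 1 was at or below 0.01, which is 0.667% of them, where 0.312% of all candidates in the ranking were. At 0.05 these numbers were 3 candidates and 2%, where the whole ranking had 1.37%. Since xol-1 was picked with its candidate in view, these counts describe the genes and nothing is read from them.

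Each candidate also has a signal, the peak caller's own strength value, whose unit no header names. Over the 150 candidates it ran from 2.18 to 85.7 with a median of 21.5, and the median over all candidates was 19.4. In replicate 1 the median was 11.0 at these genes and 10.01 over all candidates, and in replicate 2 it was 11.997 at these genes and 10.6 over all. The median IDR was 0.404 at these genes and 0.426 over all. The medians at the 8 genes were thus close to those of the ranking, and 1 candidate, at xol-1, stood far above the others.

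**Figure D1:**
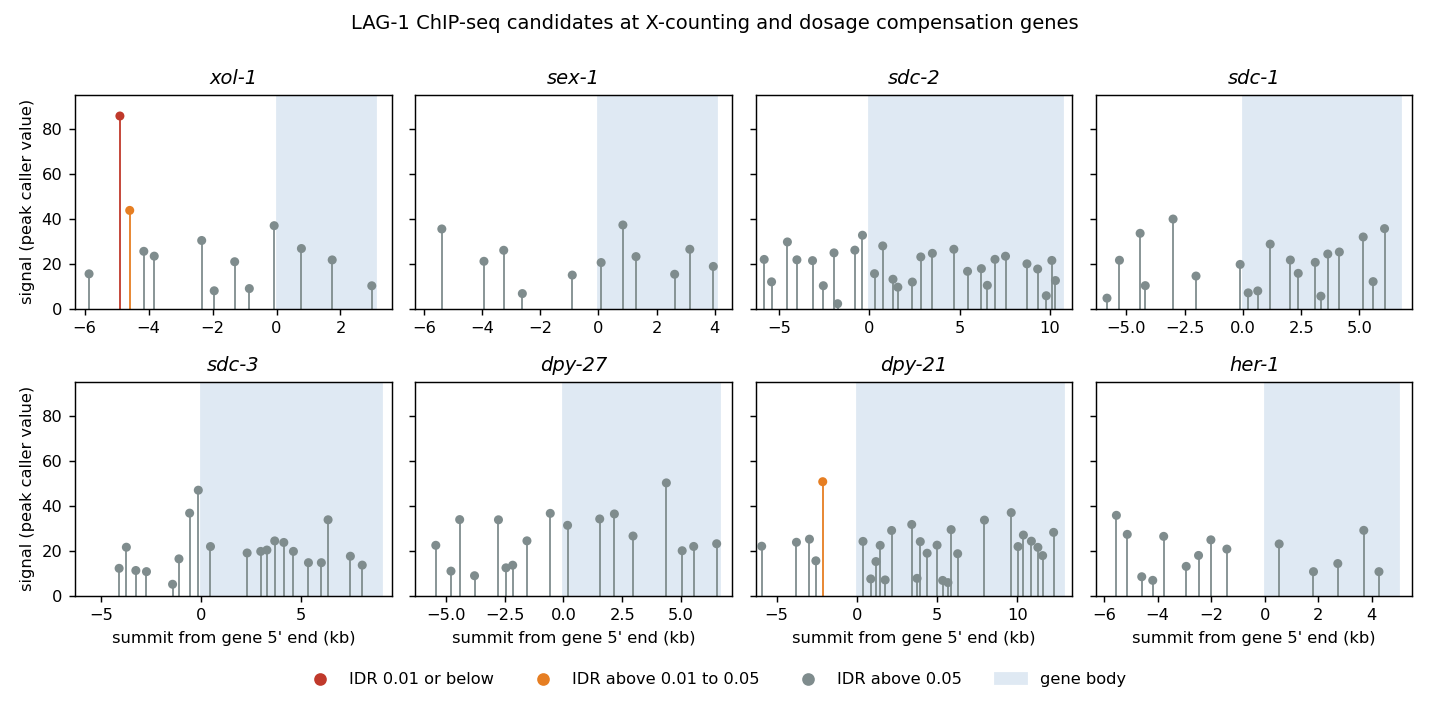
Signal of all 150 candidates (vertical axis, the peak caller's value) against the distance of the summit from the gene's 5' end (horizontal axis, kb), with 1 panel a gene, the gene body shaded and the colour giving the IDR. One red point, at 85.7 upstream of xol-1, is at or below an IDR of 0.01, and 2 orange points, at 43.7 for xol-1 and 50.7 for dpy-21, lie between 0.01 and 0.05.

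xol-1 encodes a GHMP-kinase-like protein that acts as the switch of sex determination and is the direct target of the X signal. The gene (WBGene00006962, X:8041313-8044409, plus strand) had 13 candidates in its span. The strongest lay at X:8036296-8036531, with its summit 4899 bp upstream of the 5' end, in intergenic sequence. Its signal was 38.6 in replicate 1 and 46.9 in replicate 2, and 85.7 in the ranking, with an IDR of 0.00169. It stood 126th of all candidates by signal and 116th by IDR, and it is in the deposited conservative list. The strongest signal in the xol-1 span was above that of 99.2% of all genes, and above 99.3% of the 11664 genes whose spans were 0.8 to 1.25 times as long.

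No protein-coding gene has its 5' end nearer to this summit than xol-1. The nearest 5' end of any kind was that of the noncoding RNA gene C18A11.13, and the summit lay 260 bp upstream of it. The nearest tRNA gene, C18A11.t2, lay 271 bp away at its closer edge, on the opposite strand to C18A11.13 and within it. The bases within 100 bp of the summit had a GC content of 36.3%.

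The other rankings treated this candidate unevenly. In the ranking of pooled reads its IDR was 0.00905, still past the limit. In replicate 2's own ranking it had a signal of 46.9 and an IDR of 0.0279, and replicate 1's own ranking listed no overlapping entry. It was in neither replicate's own thresholded list.

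A second xol-1 candidate lay next to the first, at X:8036603-8036838, over C18A11.t2 and C18A11.13 and 4592 bp upstream of xol-1. Its signals were 24.95 in replicate 1 and 22.6 in replicate 2, and in the ranking it had 43.7 with an IDR of 0.0348. The third, at X:8041121-8041356, had its summit 74 bp upstream of the xol-1 5' end, with 19.6 in replicate 1, 17.2 in replicate 2, 36.9 in the ranking and an IDR of 0.129. The candidate at the xol-1 5' end, nearest to xol-1 itself, thus missed the limit, and the strong one lay several kb away. The remaining 10 candidates ran from 7.93 to 30.3. Over genes of any kind, 8 of the 13 were nearer another gene's 5' end than that of xol-1. For 7 of them, both upstream candidates at or below an IDR of 0.05 included, that gene was C18A11.13, C18A11.t2 or the tRNA gene C18A11.t1. The other, at the 3' end, was nearer the coding gene C18A11.4, whose 5' end was 1226 bp off.

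**Figure D2:**
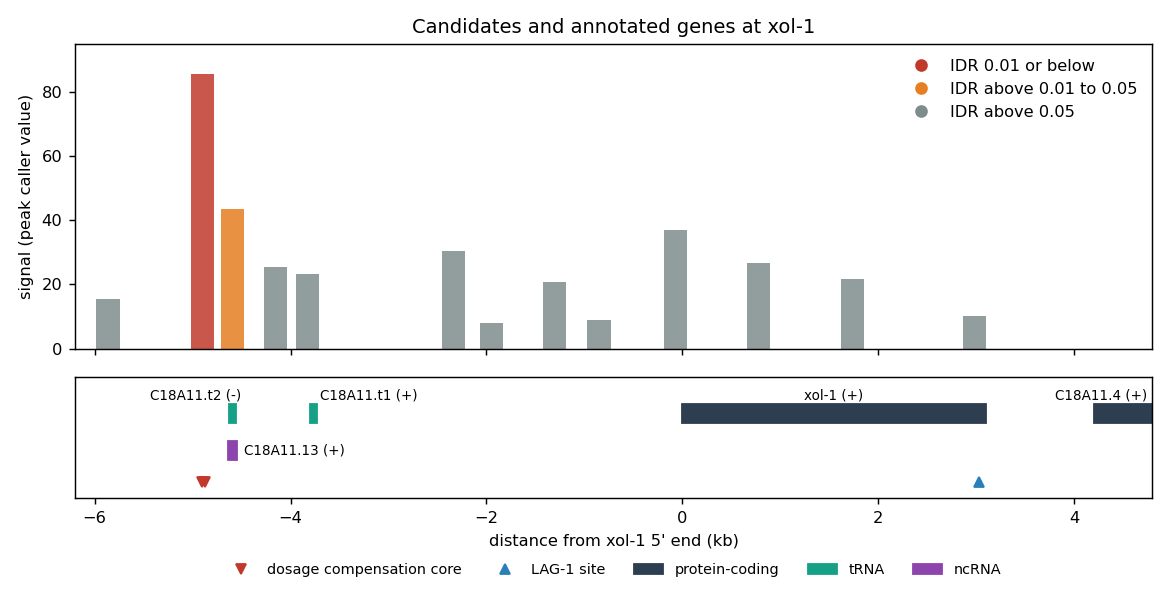
Upper panel: the 13 candidates in the xol-1 span drawn at their width, with the signal (peak caller value) as height and the IDR as colour, against the distance from the xol-1 5' end in kb. Lower panel: annotated genes, dosage compensation cores and LAG-1 sites on the same axis; both cores sit under the candidate of 85.7 and the LAG-1 site sits at the 3' end under a candidate of 10.2.

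The xol-1 candidate had no LAG-1 site within 100 bp of its summit, searched as GTGGGAA or ATGGGAA on either strand. It had 2 copies of the core GCGCAGGG there, at X:8036401-8036408 on the minus strand and at X:8036435-8036442 on the plus strand. The first starts 13 bp below the summit in coordinates and the second 21 bp above it, so they flank the summit, diverge from each other and start 34 bp apart. Read on the strand of each core, they share 12 bases, which the 2 sequences below show with the 8 bases of the core in capitals, beside the 1 other core found in the spans, in an intron of her-1.
xol-1 minus strand core: tttatcGCGCAGGGacgtat
xol-1 plus strand core: tccatcGCGCAGGGaaccct
her-1 intron core: ggtattGCGCAGGGagaata
The her-1 core began 1980 bp downstream of the her-1 5' end, and the nearest summit was 156 bp away with a signal of 10.7.

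This word is rare, so the xol-1 pair can be set in the whole genome. It occurred 314 times, 81 of them on X, which is 4.57 per Mb on X and 3.13 per Mb over the genome. The spans of the 8 genes had 3 copies, or 28.2 per Mb, of which the xol-1 pair made up 2. The candidate over that pair was in view when the genes were picked, so nothing is read from this rate. Pairs of cores that started within 100 bp of each other occurred at 5 places in the genome, 3 of them on X. Each of the 3 X pairs had a candidate past an IDR of 0.01, with signals of 110.1, 106.5 and, at xol-1, 85.7. The xol-1 pair was the only one of these 3 with its cores on opposite strands. On the autosomes, 1 pair had a candidate of 26.3 with an IDR of 0.339, and the other had none nearby. In addition, 2 candidates had a pair of cores within 100 bp of the summit whose starts were more than 100 bp apart, 1 on X (signal 162.6, IDR 0.000592) and 1 on chromosome IV (signal 11.39, IDR 0.683).

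Among the 150 candidates, 1, again that of xol-1, had a core within 100 bp of its summit. This is 0.667%, from which nothing is read either, where 0.100% of all candidates had one. Those were 126 candidates, and the xol-1 candidate was 8th among them by signal. On X, 36 candidates had a core, with a median signal of 33.3, and 11 of them (30.6%) passed an IDR of 0.01. On autosomes, 90 had a core, with a median of 20.4, and 1 passed. The median over all X candidates was 20.1 and 0.414% of them passed. These are counts of an exact word near summits, and whether the core, or proteins bound to it, had any part in the xol-1 signal was not tested.

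**Figure D3:**
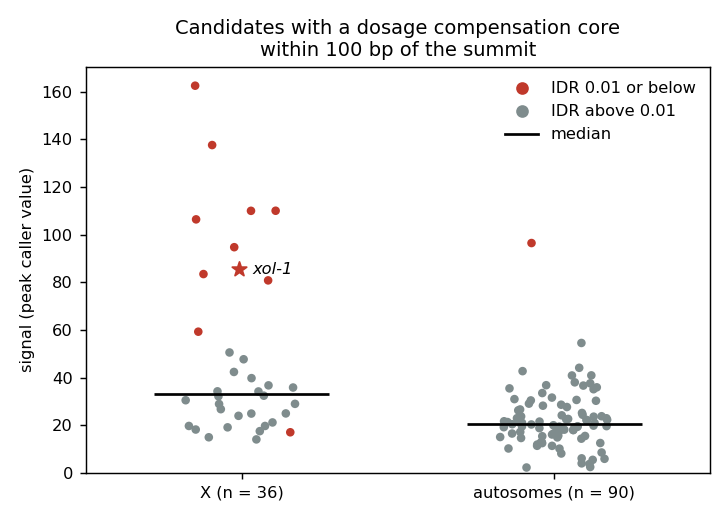
Signal (peak caller value) of the 126 candidates with a core within 100 bp of the summit, for 36 on X and 90 on autosomes, with red for an IDR of 0.01 or below and a bar at the median; the horizontal scatter only separates points. The xol-1 candidate (star, 85.7) is among 11 red points on X, 1 of which has a signal of 17.1, and the medians are 33.3 on X and 20.4 on autosomes.

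sex-1 encodes a nuclear hormone receptor that is an X-linked repressor of xol-1, 1 of the signals by which X chromosomes are counted. Its span (WBGene00004786, X:10201329-10205421, minus strand) held 11 candidates, none at or below an IDR of 0.05. The strongest, at X:10204461-10204696, lay in an intron 842 bp downstream of the 5' end and had 18.6 in replicate 1, 17.7 in replicate 2, 37.2 in the ranking and an IDR of 0.133. It was nearest to sex-1 itself. The next, 5391 bp upstream, had 9.69 in replicate 1 and 21.6 in replicate 2, and it was nearer F44A6.3, 1957 bp off. The third lay in a coding exon, nearest to sex-1, and had 26.4 with an IDR of 0.254, and a site reading GTGGGAA lay within 100 bp of its summit. The strongest signal at sex-1 was above that of 54.2% of genes, so the span was close to the middle of the genome.

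The sdc genes encode the proteins that bring the complex to X and repress her-1. SDC-2 is the large protein that marks the hermaphrodite X first, and sdc-2 is a main target of repression by xol-1. Its span (WBGene00004746, X:11522707-11533450, plus strand) held 28 candidates, and its strongest signal was the lowest among the 8 genes. That candidate, at X:11522208-11522443 with its summit 381 bp upstream of sdc-2, had 8.60 in replicate 1 and 26.9 in replicate 2, with 32.6 in the ranking and an IDR of 0.352. The replicates differed here by more than at the strongest candidate of any other of the 8 genes. It was nevertheless the strongest of the 9 candidates with a LAG-1 site near the summit, the site at X:11522279-11522285 on the minus strand shown above. The next candidate, 4543 bp upstream, lay in an intron of hpo-34 and was nearer that gene, 902 bp off. It had a site reading ATGGGAA near its summit, 14.3 in replicate 1, 12.98 in replicate 2 and 29.7 in the ranking, with the lowest IDR of the span between replicates, 0.276. In the pooled ranking the order of these IDRs turned, with 0.392 for this candidate and 0.149, the lowest of the span, for the one 381 bp upstream. The third, in a coding exon of sdc-2 and nearest to it, had 27.9.

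sdc-1 encodes a zinc finger protein that acts with the other SDC proteins. Its span (WBGene00004745, X:16275763-16282534, plus strand) held 19 candidates. The strongest, 2995 bp upstream at X:16272650-16272885, had 20.02 in replicate 1 and 19.6 in replicate 2, close to each other, with 39.8 in the ranking and an IDR of 0.0943. It was nearer the tRNA gene F52E10.t1, 999 bp off, and among coding genes nearer ifa-3, 2699 bp off. The next, in an intron 6075 bp into the gene, had 22.02 in replicate 1 and 13.98 in replicate 2, with an IDR of 0.171, and was nearer F52E10.2. The third lay over the tRNA gene F52E10.t5, 4408 bp upstream and nearer ifa-3 among coding genes, and had 33.5 with an IDR of 0.110. At the sdc-1 5' end there was a candidate of 19.7, near the median of the ranking. So each of the 3 strongest candidates in the sdc-1 span was nearer the 5' end of another gene, though the second lay inside sdc-1.

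sdc-3 encodes a zinc finger protein that acts in both dosage compensation and sex determination. Its span (WBGene00004747, V:15039148-15048207, minus strand) held 20 candidates. The strongest, at V:15048214-15048449, had its summit 125 bp upstream of the sdc-3 5' end and no other gene's 5' end nearer. It had 20.9 in replicate 1, 21.97 in replicate 2 and 46.9 in the ranking, with an IDR of 0.0645. In the ranking of pooled reads its IDR was 0.0425. The next, 560 bp upstream, had 36.7 with an IDR of 0.162 and was also nearest to sdc-3. The third, in a coding exon near the 3' end, had 33.8 with an IDR of 0.238, was nearer the pseudogene C25D7.2 and was nearer melo-3, 4959 bp off, among coding genes. Of the 8 genes, sdc-3 had the strongest candidate within 500 bp upstream to 100 bp downstream of the 5' end.

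dpy-27 encodes the SMC subunit that sets the dosage compensation condensin apart from the mitotic one. Its span (WBGene00001086, III:3813018-3819679, minus strand) held 17 candidates, and none had its summit near the 5' end in the window of 500 bp upstream to 100 bp downstream. The strongest lay in an intron, 4376 bp into the gene at III:3815185-3815420, and was nearest to dpy-27. It had 23.8 in replicate 1 and 21.1 in replicate 2, with 50.2 in the ranking and an IDR of 0.0509, just above 0.05. In the pooled ranking the IDR was 0.159. The next lay over the noncoding RNA gene R13G10.5, 563 bp upstream of dpy-27, which was the nearest coding gene, and had 36.6. The third, 2165 bp into the gene in a coding exon and nearest to dpy-27, had 36.4 with 14.01 in replicate 1 and 21.8 in replicate 2.

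dpy-21 encodes a histone H4 lysine 20 demethylase of the JmjC type that acts on the hermaphrodite X. Its span (WBGene00001080, V:17936282-17949193, minus strand) held 28 candidates. The strongest, at V:17951200-17951435, had its summit 2125 bp upstream and had 22.5 in replicate 1, 30.9 in replicate 2 and 50.7 in the ranking. Its IDR was 0.0190 between replicates and 0.0210 in the pooled ranking, the lowest after xol-1. It was nearer another gene, Y59A8B.24, and lay 631 bp upstream of that gene's 5' end. Within 100 bp of its summit the GC content was 54.7%, and 47.3% of the bases were masked as repeats in the assembly. Taking only candidates nearest to dpy-21 among coding genes, the strongest was one of 37.0 in a coding exon with an IDR of 0.219, with 12.2 in replicate 1 and 20.9 in replicate 2. The third, of 33.6, lay in an intron within sequence masked throughout as a repeat. Counting noncoding genes, both of these were nearer the noncoding RNA gene Y59A8B.38, 1779 and 3447 bp off.

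her-1 encodes a secreted protein that promotes male fate by binding the receptor TRA-2, and it is repressed in hermaphrodites by the SDC proteins. Its span (WBGene00001842, V:9697015-9702035, plus strand) held 14 candidates. The strongest, 5539 bp upstream at V:9691358-9691593, lay in a coding exon of ztf-9 and was nearer that gene, 683 bp off. It had 22.4 in replicate 1, 12.4 in replicate 2 and 35.7 in the ranking, with an IDR of 0.217, and in the pooled ranking its IDR was 0.665. One site reading GTGGGAA, at V:9691571-9691577, reached past the window of 100 bp on its right side and so was not counted. The next, in a her-1 intron, had 29.1 and was nearer xbx-6, 2337 bp off, and the third, in an intron of ztf-9, had 27.3. The strongest candidate nearest to her-1 itself had 23.0 with an IDR of 0.353.

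Taken by the strongest candidate in the span, the order was xol-1, dpy-21, dpy-27, sdc-3, sdc-1, sex-1, her-1 and sdc-2. In replicate 1 the highest signal of any candidate was 38.6 at xol-1 and 18.6 to 23.8 at the other genes. In replicate 2 it was 46.9 at xol-1 and 16.95 to 30.9 at the other genes. xol-1 was thus first in either replicate, while the places below it changed: dpy-27 was second in replicate 1 and dpy-21 was second in replicate 2. At the strongest candidates, the replicate values of xol-1 (38.6 and 46.9) lay above those of dpy-21 (22.5 and 30.9). The xol-1 candidate was in view when the genes were picked, and each gene enters with the strongest candidate of its span. Nothing is therefore read from this gap. The values of dpy-21 and dpy-27, of dpy-27 and sdc-3, of sex-1 and her-1, and of her-1 and sdc-2 overlapped, so the order of these neighbours is not settled. Those of sdc-3 (20.9 and 21.97), sdc-1 (20.02 and 19.6) and sex-1 (18.6 and 17.7) did not overlap. The gaps between them are small, and 2 values at each are too few to call these genes different. Over the 150 candidates, 49 differed by more than 2-fold between replicates, which is 32.7%, and 32.7% of all candidates did. Replicate 2 was higher in 80 of them, or 53.3%, where it was higher in 53.1% of all.

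**Figure D4:**
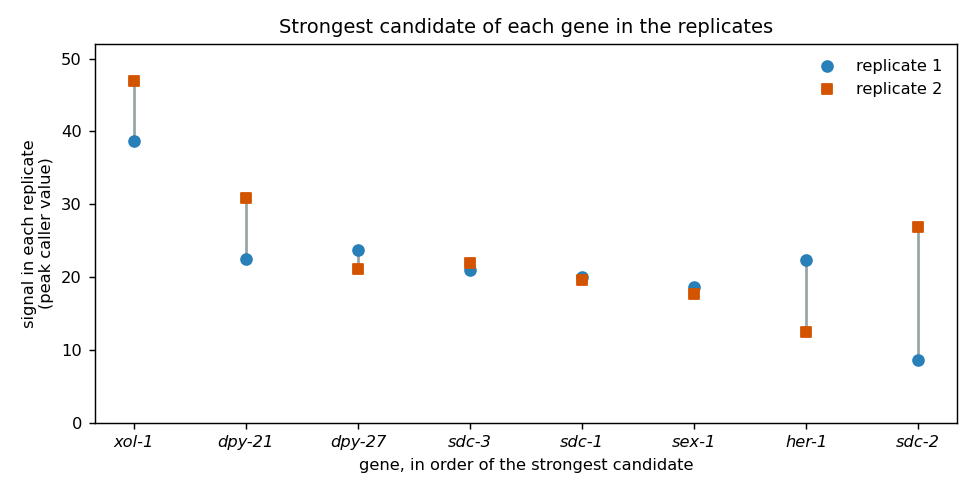
Signal of the strongest candidate of each gene (peak caller value) in replicate 1 (circles) and replicate 2 (squares), joined by a line, with genes in order of the signal in the ranking. Both xol-1 points, at 38.6 and 46.9, lie above every other point, and sdc-2 has the widest gap, 8.60 and 26.9.

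Near the 5' end, in the window of 500 bp upstream to 100 bp downstream, 5 of the 8 genes (62.5%) had a candidate: xol-1, sex-1, sdc-2, sdc-1 and sdc-3. Over all genes 63.7% had one. The strongest such candidates had a median of 32.6 at these genes, and the median was 20.9 over all genes with one. None of the 5 passed an IDR of 0.01. Over all genes, 87 of the 12724 with such a candidate had one that did, so none among 5 says little. The highest of the 5, upstream of sdc-3, was the 46.9 given above.

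LAG-1 sites, the words that CSL proteins bind, were sought at every candidate. Of the 150, 9 (6%) had GTGGGAA or ATGGGAA within 100 bp of the summit, where 6.44% of all candidates did. They fell at dpy-27 (3), sdc-2 (2), sdc-3 (2), sex-1 (1) and xol-1 (1), and none at sdc-1, dpy-21 or her-1. Their signals ran from 10.2, at the 3' end of xol-1, to 32.6, upstream of sdc-2, so none of the 3 candidates at or below an IDR of 0.05 had one. At dpy-27 all 3 read GTGGGAA, at candidates of 24.4, 21.9 and 12.4. The spans held 27 such words in all, or 254 per Mb, where the genome had 334 per Mb. One more site reading GTGGGAA lay 51 bp upstream of the sex-1 5' end, 145 bp from the nearest summit, which had 20.5.

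Of the 150 candidates, 52 had their summits in coding exons of the gene they were counted under, 32 in its introns, 2 in its 3' UTR and 1 in a noncoding exon. Another 26 lay in another gene and 37 in intergenic sequence. The median signal of the 63 upstream of the 5' end was 21.6, and that of the 87 within the gene was 21.5. By the nearest coding 5' end, 86 belonged to the gene they were counted under and 64 were nearer the 5' end of another gene. Some of the 64 had their summits inside the gene they were counted under. Among coding genes alone, the share nearer another gene's 5' end was highest at her-1 (10 of 14) and lowest at xol-1 (1 of 13). Over genes of any kind, 89 of the 150 were nearer another gene's 5' end: 8 of 13 at xol-1, 5 of 11 at sex-1, 21 of 28 at sdc-2, 10 of 19 at sdc-1, 9 of 20 at sdc-3, 11 of 17 at dpy-27, 15 of 28 at dpy-21 and 10 of 14 at her-1.

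tRNA genes lay near some of these candidates. Within 500 bp of a tRNA gene were 7 of the 150 (4.67%), 4 at xol-1 and 3 at sdc-1, where 0.700% of all candidates were that near. Both xol-1 candidates at or below an IDR of 0.05 were among them. On X, 382 candidates lay within 500 bp of a tRNA gene, with a median signal of 23.5, and 4.19% of them passed an IDR of 0.01. Over all X candidates the median was 20.1 and 0.414% passed. The part of the tRNA genes in the xol-1 signal was not tested. The median GC content around the summits was 40.0% at the 8 genes and 37.8% over all candidates, and 12.7% at these genes and 19.1% overall were masked as repeats over more than 50% of the window.

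Longer spans hold more candidates, and the genes described here are long. Their median span was 12.7 kb and that of all genes 8.03 kb. The median of the strongest signal was 43.4 over the 8 genes, 39.8 over the 7 without xol-1 and 36.6 over all genes. Among the 5616 genes with spans in the same range the median was 38.4, and 3.90% of them passed an IDR of 0.01. The strongest signal was above 91.4% of all genes for dpy-27, 92.0% for dpy-21 and 86.5% for sdc-3. It was above 65.5% for sdc-1, 47.1% for her-1 and 31.6% for sdc-2. Against genes with spans 0.8 to 1.25 times as long, these shares were 88.1% for dpy-27, 86.1% for dpy-21, 80.0% for sdc-3, 56.0% for sdc-1, 41.0% for her-1 and 16.5% for sdc-2.

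**Figure D5:**
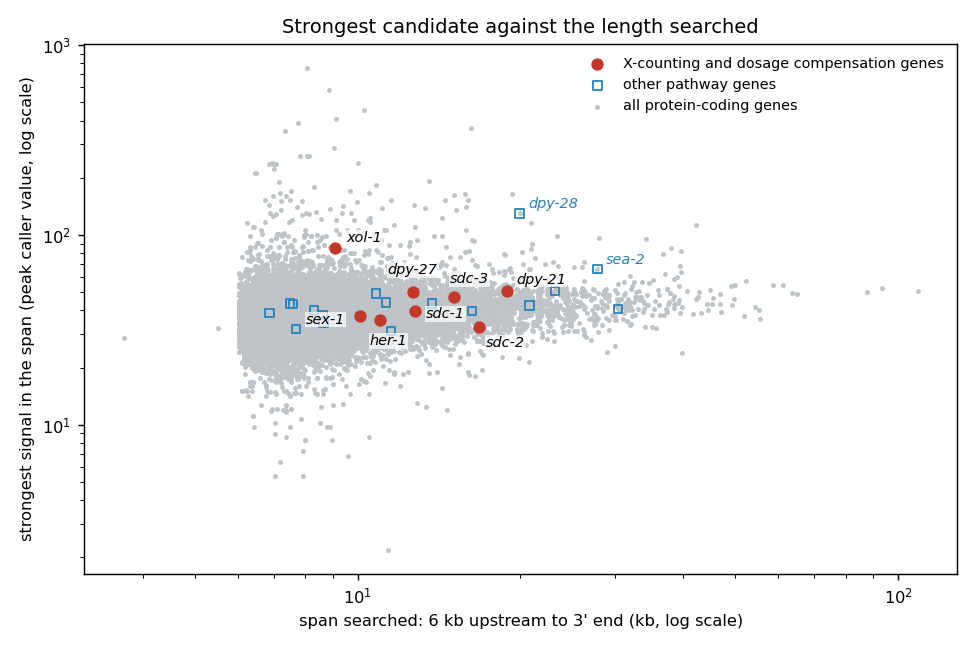
Strongest signal in the span (peak caller value, log scale) against the length searched (kb, log scale) for the 8 genes (red), the other pathway genes (blue squares) and all protein-coding genes (grey). xol-1 at 85.7 lies above nearly all genes of its length, the other 7 lie within the grey cloud between 32.6 and 50.7, and dpy-28 at 129.6 and sea-2 at 66.1 are the highest of the other pathway genes.

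17 further genes of the same pathways were looked at with the same spans, from a list made with earlier results of these data known. They cover other subunits of the complex, the H4K20 methyltransferases set-1 and set-4, the X signal elements fox-1 and ceh-39, the autosomal signal elements sea-1 and sea-2, and sex determination genes that act after her-1. An IDR of 0.01 was passed at 2 of the 17 and 0.05 at 4, where 2.94% and 13.2% of all genes passed, and the median of the strongest signals was 42.5, from 31.2 to 129.6. dpy-28, a condensin subunit of the complex, had the highest, with 53.1 in replicate 1, 68.0 in replicate 2 and 129.6 in the ranking at an IDR of 0.00103. That candidate, at III:10759128-10759363, lay 61 bp upstream of tasp-1 and 3885 bp upstream of dpy-28, so it was much nearer another gene. sea-2, an autosomal gene whose product counters the X signal, had 35.5 in replicate 1, 35.3 in replicate 2 and 66.1 in the ranking, in a coding exon, with an IDR of 0.00263. Its nearest coding 5' end was that of K10G6.9, 3984 bp off, and the snoRNA gene K10G6.11 was nearer, 2340 bp off. mix-1, the SMC subunit that the complex shares with mitotic condensin, had 50.5 in a coding exon with an IDR of 0.0634. That candidate lay 16319 bp into mix-1 and was nearer the snoRNA gene M106.6, 248 bp off. Among coding genes it was nearer M106.8, 3062 bp off. set-4 had 43.5 with an IDR of 0.0334 at 300 bp upstream, and tra-1, the terminal regulator of the sex determination pathway, had 40.7 with an IDR of 0.0325 in an intron. None of the strongest candidates of the 17 genes had a core within 100 bp of the summit. Those of ceh-39 and fem-1 had a LAG-1 site there, where 6.44% of all candidates had one. Neither passed an IDR of 0.05, and both were nearer other genes. The ceh-39 candidate lay over the tRNA gene T26C11.t1, 2683 bp upstream and nearer T26C11.8 among coding genes, with an IDR of 0.0969. The fem-1 candidate lay 5937 bp upstream in a coding exon of tebp-2, nearer cec-6, 961 bp off, with an IDR of 0.123.

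In the order of all genes by the strongest signal in the span, xol-1 was 153rd. Next above were 6 genes with the same strongest signal of 85.8, of which exos-3 and ndub-10 come last by name, and the 2 next below were tir-1 with 84.9 and trp-4 with 84.2. All 4 passed an IDR of 0.01, and their places next to xol-1 rest on this 1 value in 1 ranking.

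The length of the span decides which candidates are counted. In the outermost 1000 bp of the 8 spans there were 10 candidates, and the strongest, the her-1 candidate in ztf-9, had 35.7 with an IDR of 0.217. In the first 1000 bp beyond them there were 13, and the strongest, also upstream of her-1, had 44.6 with an IDR of 0.100. With spans that begin 2000 bp upstream, the xol-1 candidate falls outside and the strongest left at xol-1 is that of 36.9 at its 5' end.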

How the data were processed

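Chromatin precipitated with an antibody to GFP from 2 replicates of 1 group was analysed as deposited peak lists on ce11. Which aligner and which peak caller were used is not given in the sources used here. The deposited signal is the authors' peak caller value for each entry, in a unit that no header names, used here for description and for order inside 1 list. Global IDRs were taken from the deposited −log10 values of the rankings. The deposited score follows the IDR, per its values. The first compared list of the ranking matched replicate 1's own ranking at 52948 entries and replicate 2's at 0, and the second matched replicate 2's at 47298 and replicate 1's at 0, by coordinates and by signal to 3 decimals, so they are called replicates 1 and 2.

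Gene models came from Ensembl release 115 and sequence from NCBI WBcel235, which is ce11. Names of tRNA genes came from the RefSeq gene table of the same assembly. The ranking holds 391 entries at an IDR of 0.01 or below, of which 100 are not in the conservative list. The bases within 100 bp of the summit were searched on both strands for whole words. A gene had an entry past the threshold if its span held one at an IDR of 0.01 or below. No test was run, since there is 1 group and the genes and lists were chosen with earlier results of these data known. The named genes are the 8 genes, the nearest 5' ends at their 3 strongest entries and at every entry at an IDR of 0.05 or below, pathway genes past the threshold or among the 3 strongest, and the 2 genes on either side of xol-1 in the order of signal. set-4, tra-1, fem-1, the site at ceh-39, the genes beside the ceh-39 and fem-1 candidates and sites away from these entries were named after their values were seen. Read totals were not used here, so the depth of each replicate is unknown and signals have no interval. The counting scripts were tested on simulated data. Alternatives were the pooled ranking, each replicate's own ranking, other spans, IDR limits, merged entries, nearest starts and forms of the site. Tables were made with pandas 2.3.3 and NumPy 2.4.6 in Python 3.11.15, and plots with matplotlib 3.10.9.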

Additional observations from a re-analysis of the deposited data

How the results depend on the processing

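The xol-1 call, 1 of 8 genes at an IDR of 0.01, gave the same count in the pooled ranking, at an IDR of 0.005, in the conservative list and with nearest coding 5' ends only. All but the pooled count restate what is given above, the candidate's IDR of 0.00169, its list and its nearest coding gene, and are no further check. The count was 0 with spans from 2000 bp upstream and 2 at an IDR of 0.05. Without 1 replicate, which leaves a ranking made within the other, it was 0 without either, with 1 pathway gene without either (2 in full), 75 to 78 entries (150 in full) and a median strongest signal of 22.4 to 22.7 (43.4 in full). xol-1's strongest signal was then 24.95 without replicate 2, at the candidate over C18A11.t2, and 46.9 without replicate 1, at the strong candidate. Replicate 1's own ranking listed no entry at the strong candidate, whose replicate 1 signal in the main ranking was 38.6. Pathway genes past the limit numbered 1 from 2000 bp, 4 at an IDR of 0.05 and 0 with nearest coding 5' ends only. From 2000 bp the median strongest signal was 36.9. Entries with a LAG-1 site, 9 in full, were 18 within 200 bp, 5 for GTGGGAA only and 18 for TGGGAA. Of 60 alternative values, 25 moved by less than the limits set for them and 35 by more. The 25 include the strongest signals of the 8 genes and their median in the pooled ranking, which could not move. That ranking carries the same signals as the main one. The limits were loose: 104 entries from 2000 bp, against 150 in full, counted as not moved. The strongest signals in the main ranking equal those in the ranking of pooled reads, 85.7 at xol-1 in both. A single replicate's ranking carries that replicate's own signal, so its lower values are not like for like with them. How far this accounts for the lower values was not tested. The replicates' own rankings rest on fewer reads, and what this does to their IDR was not tested. No paired analysis was possible because there is 1 group. Depth per replicate is unknown, so no limit can be set on candidates too weak to be listed.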
